A study of Mus musculus with 6 samples.

Results

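H3K4me3 peaks that lay at promoters of noncoding genes, and at no promoter of a protein-coding gene, were examined in mouse colonic organoids, which are epithelial cultures grown from colon. A promoter was the 1000 bp on each side of a GENCODE transcript start on the GRCm38/mm10 genome. A peak was taken when it lay on an autosome, overlapped such a window of a gene whose gene type is not protein_coding by at least 1 bp, and overlapped no window of a protein_coding gene. By this rule, 345 of 11233 autosomal H3K4me3 peaks were noncoding-only peaks in wt, or 3.07%, and 364 of 11565, or 3.15%, in wt+TNFα. Of the other peaks, 10032 in wt and 10209 in wt+TNFα touched a protein-coding promoter, and 856 and 992 touched no promoter.

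Both conditions used organoids of C57BL/6 genotype without a further allele. The wt organoids received no TNFα, and the wt+TNFα organoids were kept in 40 ng/ml of this inflammatory cytokine for 3 weeks. H3K4me3 and H3K27me3 were each measured by ChIP-seq in 1 library per condition, and peaks were called against the input of the same condition. The organoids are labelled as epithelial cells, so the immune and stromal cells of a colon are not part of the model. The sample labels and the methods text do not give the number of mice behind a culture. For mouse numbers the paper refers to its source data.

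H3K4me3 is a histone mark laid down at active and poised transcription starts, whether the gene codes for a protein or not. H3K27me3 is the mark of Polycomb repression, which covers silent developmental genes in broad domains, and promoters with both marks are called bivalent. Noncoding genes with a promoter of their own include long noncoding RNAs, hosts of microRNAs and small nucleolar RNAs, transcribed pseudogenes and genes of structural RNAs.

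The promoters of all 10 epithelial marker genes examined, among them Epcam, Cdx2 and Vil1, had an H3K4me3 peak in both conditions, and none of 12 markers of immune, endothelial, stromal and glial cells did. These markers were chosen after values were seen, so the counts are no independent check of cell identity. The conditions also differed outside the autosomes. On chromosome X, 247 H3K27me3 peaks were called for wt and 11578 for wt+TNFα. On chromosome Y, 3 H3K4me3 peaks were called for wt and 0 for wt+TNFα. The autosomal length under H3K27me3 was 101.5 Mb for wt and 227.9 Mb for wt+TNFα. A response to TNFα and a difference between the cultures or their libraries therefore cannot be told apart in any comparison below. With 1 library per condition and mark there was no replicate check and no test, and the 95% intervals given here cover counting error only. Fold enrichment, the ChIP signal over local background that MACS2 reports at the summit, was computed separately for each library and is set side by side.

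Sequence at the promoters on which the comparisons turn is shown first. Each line holds the 300 bp around the summit of a noncoding-only peak on the plus strand of GRCm38, from RefSeq, with CpG dinucleotides in capitals. AL805899.1 and Lncpint were under H3K27me3 in wt alone, at Lncpint by a weak H3K27me3 peak (−log10 q 1.01). Mir193a had the largest gain in width among paired peaks, and Mir375 and Gm3054 had H3K4me3 in wt alone and H3K27me3 in wt+TNFα alone.
AL805899.1, wt summit, chr4:88938072-88938371: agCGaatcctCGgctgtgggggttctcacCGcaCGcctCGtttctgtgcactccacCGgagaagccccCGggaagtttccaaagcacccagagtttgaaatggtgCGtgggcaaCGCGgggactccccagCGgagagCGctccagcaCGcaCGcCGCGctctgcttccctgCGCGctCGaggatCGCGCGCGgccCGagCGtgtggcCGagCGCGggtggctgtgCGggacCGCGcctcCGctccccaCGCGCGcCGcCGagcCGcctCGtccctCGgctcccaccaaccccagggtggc
Lncpint, wt+TNFα summit, chr6:31220400-31220699: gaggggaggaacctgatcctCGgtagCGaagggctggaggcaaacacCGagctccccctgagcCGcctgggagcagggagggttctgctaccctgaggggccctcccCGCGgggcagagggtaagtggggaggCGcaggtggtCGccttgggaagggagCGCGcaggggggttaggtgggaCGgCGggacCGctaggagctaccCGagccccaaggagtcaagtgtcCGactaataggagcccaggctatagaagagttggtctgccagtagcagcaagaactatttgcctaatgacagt
Mir193a, wt+TNFα summit, chr11:79711536-79711835: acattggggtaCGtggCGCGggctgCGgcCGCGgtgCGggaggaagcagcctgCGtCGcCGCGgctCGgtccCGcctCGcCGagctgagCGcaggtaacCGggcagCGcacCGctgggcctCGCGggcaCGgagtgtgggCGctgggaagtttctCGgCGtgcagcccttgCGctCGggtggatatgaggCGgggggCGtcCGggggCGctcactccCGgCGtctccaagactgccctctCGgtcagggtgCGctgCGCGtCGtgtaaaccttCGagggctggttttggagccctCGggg
Mir375, wt summit, chr1:74900604-74900903: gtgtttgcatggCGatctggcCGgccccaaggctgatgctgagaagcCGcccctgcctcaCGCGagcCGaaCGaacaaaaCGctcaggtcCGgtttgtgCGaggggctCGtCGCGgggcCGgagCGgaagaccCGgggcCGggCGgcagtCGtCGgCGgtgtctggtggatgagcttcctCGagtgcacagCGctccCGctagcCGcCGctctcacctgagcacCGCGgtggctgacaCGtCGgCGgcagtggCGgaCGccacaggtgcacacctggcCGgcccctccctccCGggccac
Gm3054, wt summit, chr5:137165713-137166012: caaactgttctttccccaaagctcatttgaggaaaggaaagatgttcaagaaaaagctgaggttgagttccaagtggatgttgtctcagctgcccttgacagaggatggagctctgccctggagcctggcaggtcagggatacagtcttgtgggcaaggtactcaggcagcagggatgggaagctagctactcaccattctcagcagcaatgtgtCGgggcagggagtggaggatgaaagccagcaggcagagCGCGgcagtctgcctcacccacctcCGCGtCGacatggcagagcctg

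These windows held 40 CpGs at AL805899.1, 40 at Mir193a, 35 at Mir375, 15 at Lncpint and 6 at Gm3054, so that 3 of them were CpG dense and the Gm3054 window was not. The ratio of observed to expected CpG, which is near 1 where CpGs have not been lost to methylation, was 1.04 at AL805899.1, 1.04 at Mir193a, 0.926 at Mir375, 0.520 at Lncpint and 0.263 at Gm3054.

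Several noncoding-only peaks lay at microRNA genes or at the start of a gene that holds one, as for miR-155 and miR-31, and the mature microRNAs are shown with the seed, bases 2 to 8, in capitals, from RefSeq.
miR-192-5p (Mir192): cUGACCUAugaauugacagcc
miR-215-5p (Mir215): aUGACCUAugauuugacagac
miR-194-5p (Mir194-2, Mir194-1): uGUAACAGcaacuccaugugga
miR-132-3p (Mir132): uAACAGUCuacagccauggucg
miR-212-3p (Mir212): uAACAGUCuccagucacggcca
miR-193a-3p (Mir193a): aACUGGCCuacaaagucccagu
miR-155-5p (Mir155): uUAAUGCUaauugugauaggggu
miR-31-5p (Mir31): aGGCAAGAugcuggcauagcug

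miR-192 and miR-215 had the same seed, both miR-194 genes gave the same mature sequence, and miR-132 and miR-212 had the same seed. miR-192, miR-194 and miR-215 are known as epithelial microRNAs of the intestine, miR-155 as a microRNA of activated immune cells, and miR-31 as a microRNA that rises in inflamed and regenerating colon. Mature miR-375, which is known from endocrine cells, is not printed.

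Long noncoding RNA genes made up most of the noncoding-only peaks. When each peak was assigned to the gene whose start was nearest to the summit, 238 peaks in wt and 257 in wt+TNFα belonged to long noncoding RNAs, 44 and 43 to pseudogenes, 39 and 36 to small noncoding RNAs, and 24 and 28 to genes of the class TEC, which GENCODE keeps for transcripts still to be tested. No peak lay at the 494 immune receptor segments. As a share of annotated autosomal genes, 2.94% (wt) and 3.09% (wt+TNFα) of 9426 long noncoding RNA genes had such a peak. The share was 0.474% of 11594 pseudogenes in both conditions, and 1.46% and 1.39% of 5704 small noncoding RNA genes. Across all 30422 noncoding genes, a noncoding-only peak was found at 446 for wt and at 462 for wt+TNFα, with 404 genes in common.

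**Figure D1:**
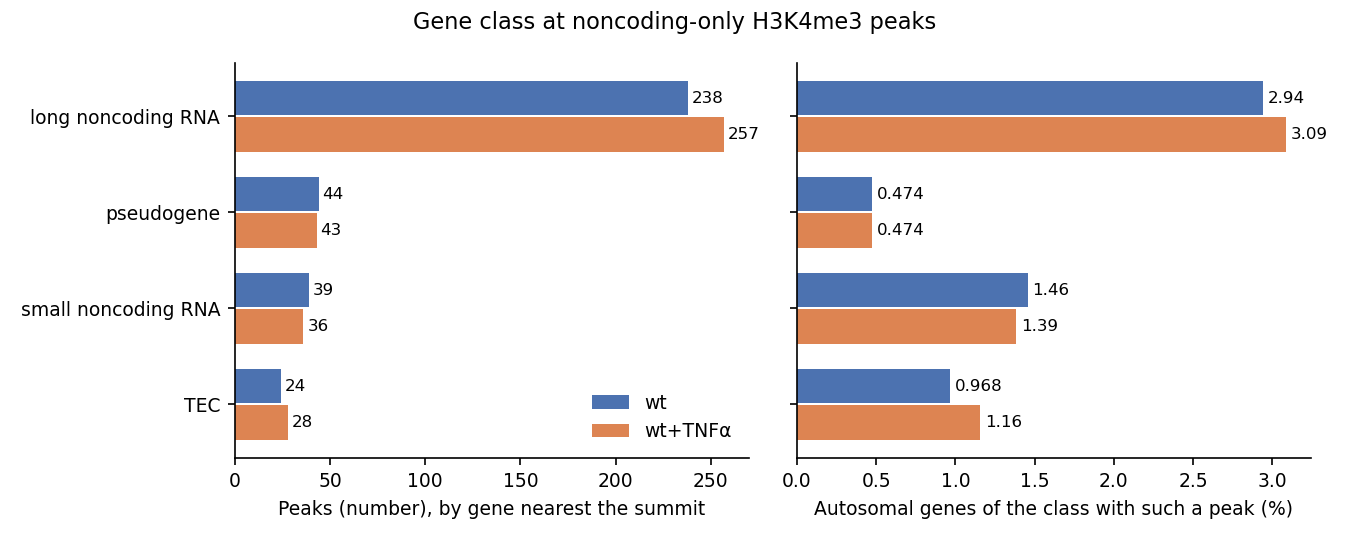
Number of noncoding-only H3K4me3 peaks by the class of the gene nearest the summit (left) and the share of annotated autosomal genes of each class with such a peak (right), in wt and wt+TNFα. Long noncoding RNAs lead in both panels, with 238 and 257 peaks and 2.94% and 3.09% of genes.

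Among the types within these classes, lincRNA genes accounted for 162 peaks in wt and 173 in wt+TNFα, processed_transcript genes for 58 and 61, and antisense genes for 52 and 54. Of the 753 processed_transcript genes, 7.57% in wt and 7.97% in wt+TNFα had a noncoding-only peak. Processed pseudogenes are copies of mRNAs pasted into the genome without their promoter. Among the pseudogene types that had any such peak, they had the lowest share, at 0.157% and 0.146% of 8924 genes. Transcribed unprocessed pseudogenes, which are gene duplicates with a promoter, stood at 5.43% and 5.88% of 221 genes. For pseudogenes with near-identical copies, the placement of reads between the copies was not tested.

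Most noncoding-only peaks had a single noncoding gene, 266 of 345 in wt and 283 of 364 in wt+TNFα, and at most 6 genes shared a peak. The summit lay between protein-coding genes in 87.0% and 86.5% of peaks. It was in an intron of a protein-coding gene in 33 and 36, and in an exon in 12 and 13. The nearest protein-coding start was at a median of 16650 bp in wt and 18550 bp in wt+TNFα. It was farther than 50000 bp in 75 and 84 peaks. Chromosome 12 had the highest proportion of noncoding-only peaks, at 6.20% of its peaks (wt) and 6.67% (wt+TNFα), and chromosome 17 followed with 5.87% and 6.08%. RefSeq placed the start of a coding mRNA within 1000 bp of 39 of these peaks in wt and 46 in wt+TNFα. Examples are Zswim6, which GENCODE lists as a processed_transcript, and Gm3054, whose peak lay at a RefSeq start of Muc3, a membrane mucin.

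The noncoding-only peaks were narrower and less enriched than peaks at protein-coding promoters, and wider than peaks at no promoter. The median width was 1024 bp in wt (95% interval 941 to 1130) and 1089 bp in wt+TNFα (1014 to 1187). At protein-coding promoters it was 1486 bp (1467 to 1503) and 1596 bp (1572 to 1615), and away from promoters 721.5 and 741.5 bp. The intervals of these kinds of peaks did not overlap in either condition. Median fold enrichment was 11.9 in wt and 12.8 in wt+TNFα at noncoding-only peaks, against 27.01 and 29.4 at protein-coding promoters. By strength, 60.0% of noncoding-only peaks in wt and 59.1% in wt+TNFα fell into the weakest 25% of all autosomal peaks by −log10 q, and 15 and 17 peaks into the strongest 25%.

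**Figure D2:**
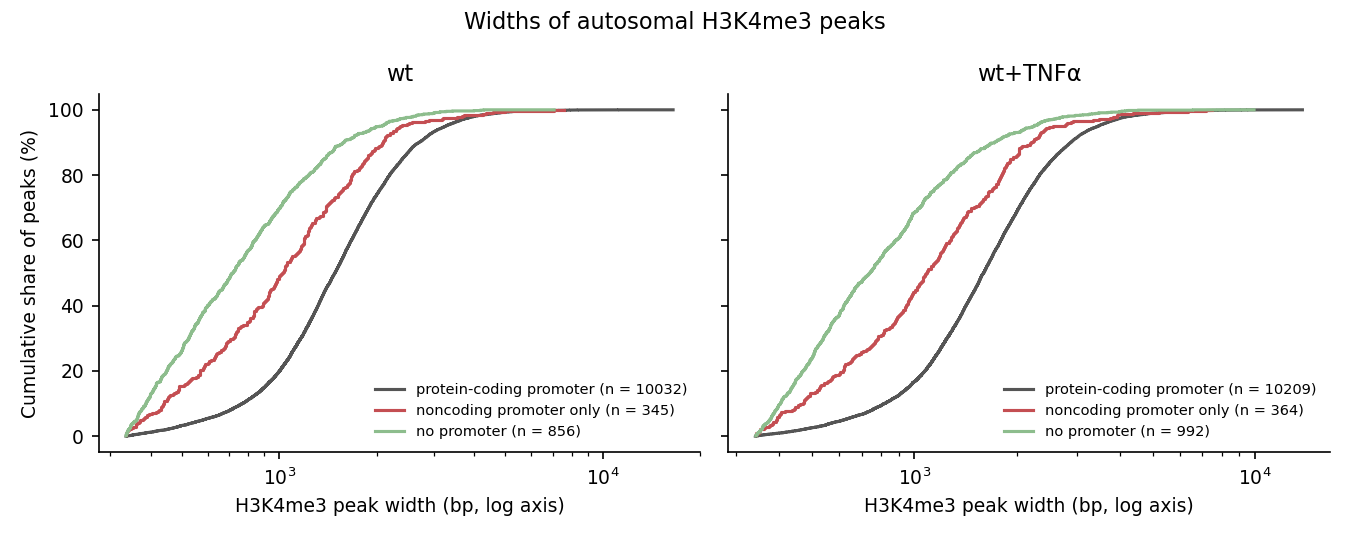
Cumulative share of autosomal H3K4me3 peaks by width in bp on a log axis, for peaks at protein-coding promoters, at noncoding promoters only and at no promoter, in wt (left) and wt+TNFα (right). The noncoding-only curve runs between the others, with medians of 1024 bp in wt and 1089 bp in wt+TNFα.

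The highest fold enrichment in wt was at Zswim6 (56.1), followed by 2900052L18Rik (47.7), Gm20732 (46.9), the transcribed pseudogene 3110053B16Rik (46.1) and Gm8066 (45.9). In wt+TNFα it was at the pseudogene Gm49326 (54.7), 1810026B05Rik (54.1), 3110053B16Rik (50.8), Zswim6 (49.4) and Gm8066 (47.0). All of these genes had a peak in both conditions. The Gm8066 peak lay at a RefSeq coding start of Gigyf1. Gm49326, which lay at a RefSeq coding start of Gm9222, had a fold enrichment of 29.0 in wt, and 1810026B05Rik, a long noncoding RNA gene, had 34.2. Gm20732, whose gene body holds Mir30d, had 46.9 in wt and 27.5 in wt+TNFα.

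The widest peak was at Gm53, a lincRNA gene in the Hoxb cluster, and measured 7576 bp in wt (chr11:96250475-96258050) and 7465 bp in wt+TNFα. Mir196a-1, a microRNA gene downstream of it in the same cluster, had a peak of 4563 bp in wt and 6336 bp in wt+TNFα. In wt the latter stretch held a separate peak of 827 bp at Gm53, which fell within the single wt+TNFα peak. Malat1, a nuclear long noncoding RNA made in nearly every cell, had a peak of 7052 bp in wt and 7174 bp in wt+TNFα, and 2810410L24Rik one of 4999 and 5223 bp. In all, 12 peaks in wt and 13 in wt+TNFα were 3 kb or wider. The lncRNA Hoxaas3 of the Hoxa cluster had a noncoding-only peak in each condition, but at different starts, of 855 bp in wt and 627 bp in wt+TNFα.

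Base composition followed the same order as width. In the 300 bp around the summit, GC content had a median of 60.0% at noncoding-only peaks in wt and 59.2% in wt+TNFα, against 68.0% and 67.7% at protein-coding promoters and 54.7% and 54.0% away from promoters. The observed to expected CpG ratio had a median of 0.671 and 0.686, against 0.807 and 0.798 at protein-coding promoters. A ratio of at least 0.6, as in CpG islands, was reached by 59.7% of noncoding-only peaks in wt and 57.7% in wt+TNFα, and by 81.6% and 80.3% of peaks at protein-coding promoters. Repeats filled more than 50% of the window in 5 noncoding-only peaks of wt and 7 of wt+TNFα. The κB consensus motif of NF-κB, the factor that TNFα activates, was matched on either strand in 25 of 345 windows in wt (7.25%) and 24 of 364 in wt+TNFα (6.59%). It was matched in 7.53% and 7.54% of the windows of all autosomal peaks, and these lay within the intervals of the noncoding-only peaks (4.96 to 10.5 and 4.47 to 9.62).

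Most noncoding-only peaks were present in both conditions. In wt, 313 of 345 were overlapped by an H3K4me3 peak of wt+TNFα, or 90.7% (Wilson 95% interval 87.2 to 93.4). The other 32 peaks, or 9.28%, had none, against 3.26% of all autosomal wt peaks. In wt+TNFα, 307 of 364 were overlapped by a wt peak, or 84.3% (80.3 to 87.7), and 57, or 15.7%, had none, against 6.58% of all. At protein-coding promoters 98.2% of wt and 96.2% of wt+TNFα peaks were shared, and away from promoters 82.6% and 67.9%. When the lists were brought to the same number of autosomal peaks, 11233, the shares of noncoding-only peaks became 87.8% in wt and 87.9% in wt+TNFα. Lists of nearly equal length give nearly equal shares by construction. Of the shared wt peaks, 306 overlapped noncoding-only peaks alone in wt+TNFα, and 4 overlapped at least 1 peak at a protein-coding promoter.

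Peak strength separated shared from unshared peaks. Every noncoding-only peak above the weakest 25% by −log10 q was shared, 138 in wt and 149 in wt+TNFα, and 99.3% to 100% of coding-promoter peaks in each of these groups were shared too. Within the weakest 25%, 84.5% (79.0 to 88.8) of 207 were shared in wt, against 90.2% (88.8 to 91.5) of peaks at protein-coding promoters. In wt+TNFα 73.5% (67.2 to 78.9) of 215 were shared, against 79.9% (78.0 to 81.7). The noncoding-only share was thus the lower one in both conditions. The intervals overlapped only at their ends, which does not show equal shares, and the difference was not tested. Unshared peaks were narrow, with median widths of 563.5 bp (wt) and 574 bp (wt+TNFα), and shared ones measured 1078 and 1205 bp. Their median fold enrichment was 6.21 and 6.56, against 13.2 and 15.6 for shared ones. Of the unshared peaks, 3 in each condition lay within 1000 bp of a peak of the other list. The CpG ratio of the unshared peaks had a median of 0.465 (wt) and 0.449 (wt+TNFα). The κB motif was matched in 2 of the 32 unshared peaks of wt and 1 of the 57 of wt+TNFα.

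**Figure D3:**
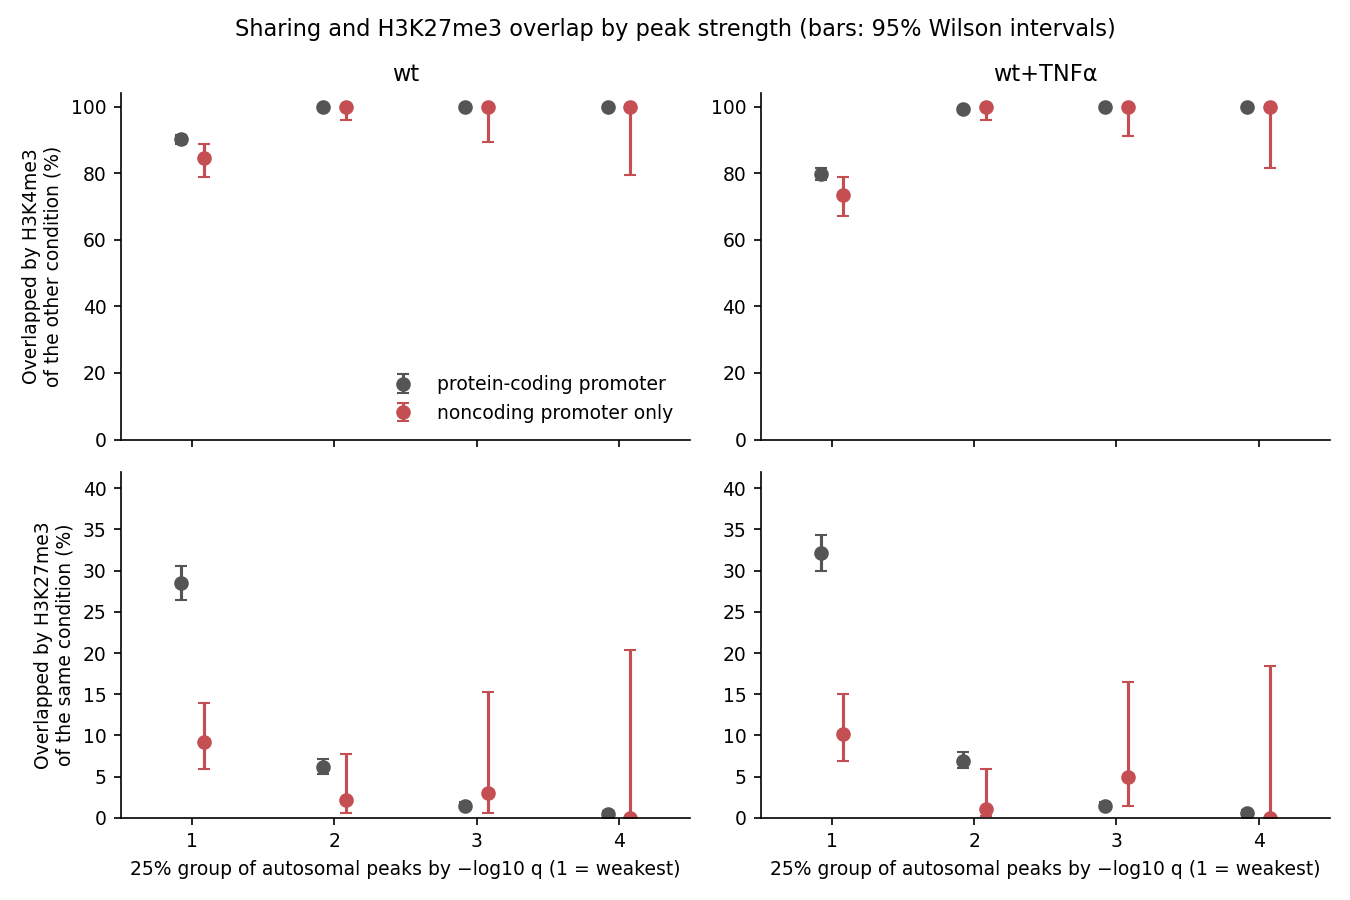
Share of H3K4me3 peaks overlapped by H3K4me3 of the other condition (top) and by H3K27me3 of the same condition (bottom), in 4 groups of 25% of all autosomal peaks ranked on −log10 q, with 1 the weakest, and bars for 95% Wilson intervals. Unshared noncoding-only peaks sit in the weakest group alone, where H3K27me3 lies over 9.18% of noncoding-only and 28.5% of coding-promoter peaks in wt and over 10.2% and 32.1% in wt+TNFα.

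By class, 92.0% of the peaks nearest to long noncoding RNAs in wt and 84.4% in wt+TNFα were shared. For pseudogenes the shares were 84.1% and 81.4%, for small noncoding RNAs 89.7% and 94.4%, and at TEC genes 22 of 24 and 21 of 28 were shared. The last 3 classes held few peaks, and the differences between classes were not tested.

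The most enriched peaks present in wt alone were at Gm48809 (fold enrichment 13.2, 1190 bp), Gm47450 (12.6, 582 bp), Gm3054 (11.3, 3714 bp), 2900072N19Rik (10.5, 682 bp) and 9130410C08Rik (9.80, 2562 bp). Gm3054 and 9130410C08Rik stood apart from the median width of 563.5 bp. The most enriched peaks present in wt+TNFα alone were at Lncpint (14.1, 1059 bp), Gm17546 (12.4, 919 bp), Gm13056 (11.6, 1072 bp), Gm49499 (11.5, 1620 bp) and Gm11532 (11.1, 573 bp). The Gm17546 peak lay at a RefSeq coding start of Ano6. Lncpint is a p53-induced long noncoding RNA. Its peak at chr6:31219816-31220874 also held the start of 2210408F21Rik, a processed_transcript gene on the opposite strand. The peak lay 1175 bp from the nearest wt peak, which was at a further Lncpint start and was shared, with 2478 bp in wt and 2885 bp in wt+TNFα. Neat1, the scaffold of nuclear paraspeckles, likewise had a peak of 2904 bp in wt and 3757 bp in wt+TNFα, and in wt+TNFα alone a further one of 418 bp.

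Of the shared peaks, 299 paired one to one. Their width in wt+TNFα exceeded that in wt by a median of 82 bp (95% interval 50 to 110), against 101 bp (97 to 105) for 9699 pairs at protein-coding promoters. The noncoding-only peak was wider in wt+TNFα in 208 pairs, or 69.6%, against 74.4% of all pairs. It was at least 1.5 times wider in wt+TNFα in 23 pairs, or 7.69%, against 4.68% of all pairs and 3.98% of those at protein-coding promoters. It was at least 1.5 times wider in wt in 8 pairs, or 2.68%, against 1.20% of all. Among 639 pairs at no promoter, 12.52% were at least 1.5 times wider in wt+TNFα and 3.44% in wt. Wider peaks in wt+TNFα were thus found across the whole list. The noncoding-only shares past 1.5 times lay between those of all pairs and those of pairs at no promoter in both directions, from few pairs and without a test. More total reads were sequenced for wt+TNFα H3K4me3 than for wt H3K4me3, and the part of depth in these widths was not tested.

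**Figure D4:**
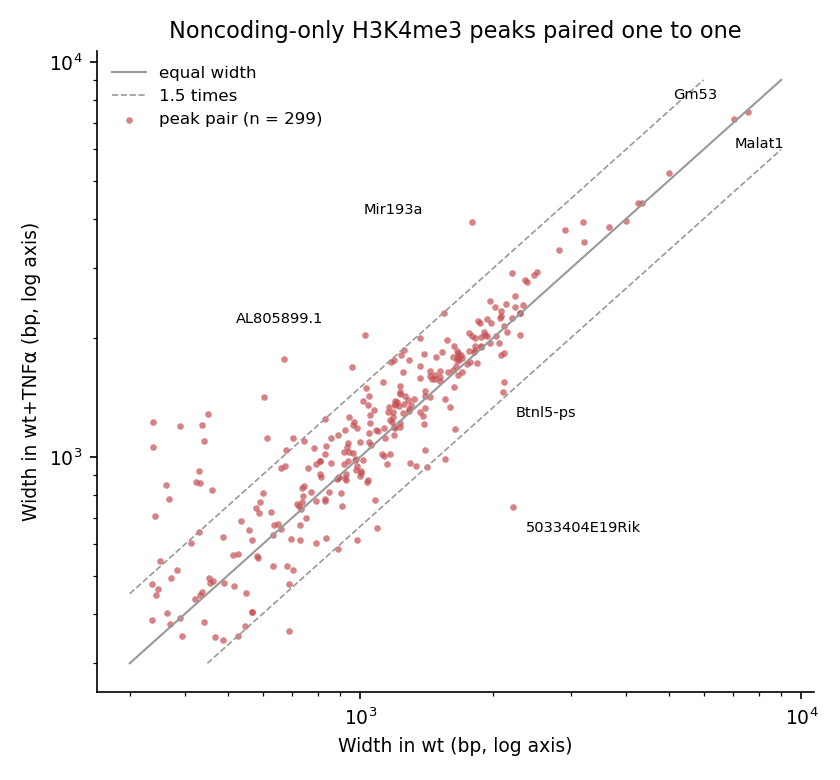
Width in bp of 299 noncoding-only H3K4me3 peaks paired one to one between wt (x axis) and wt+TNFα (y axis), on log axes, with lines at equal width and at a ratio of 1.5 either way. Mir193a (1789 and 3929 bp) and AL805899.1 (1024 and 2030 bp) lie above the band, and 5033404E19Rik (2220 and 746 bp) below it.

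The largest gain was at Mir193a, a microRNA gene at chr11:79711969-79712034, whose peak measured 1789 bp in wt and 3929 bp in wt+TNFα. Its fold enrichment was 18.3 in wt and 41.5 in wt+TNFα. The next were Gm33460 (672 and 1769 bp), AL805899.1 (1024 and 2030 bp), Gm47734 (338 and 1224 bp) and the Neat1 peak, whose nearest start in wt belonged to Gm27533. The largest losses were at the pseudogenes 5033404E19Rik (2220 bp in wt and 746 bp in wt+TNFα) and Btnl5-ps (2103 and 1463 bp), and at the antisense gene Gm16008 (2120 and 1549 bp).

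H3K27me3 lay over few noncoding-only peaks. In wt, 22 of 345 were overlapped by wt H3K27me3, or 6.38% (4.25 to 9.47), against 7.40% of all autosomal wt peaks. In wt+TNFα, 25 of 364 were overlapped by wt+TNFα H3K27me3, or 6.87% (4.70 to 9.94), against 7.96% of all. Across conditions, 25 wt peaks (7.25%) lay under wt+TNFα H3K27me3, against 7.74% of all, and 29 wt+TNFα peaks (7.97%) under wt H3K27me3, against 8.16% of all. Within a condition, the overlap covered the full width of 16 of these peaks in wt and 18 in wt+TNFα. Although H3K27me3 covered more of the genome in wt+TNFα, the share of noncoding-only peaks under it had overlapping intervals in both conditions. Peaks under H3K27me3 were rich in CpG, with a median ratio of 0.901 for 22 peaks in wt and 0.845 for 25 in wt+TNFα. Unshared peaks were under H3K27me3 in 4 of 32 in wt (12.5%) and 9 of 57 in wt+TNFα (15.8%), and shared peaks in 5.75% and 5.21%. Among all autosomal peaks, those unshared were under it in 101 of 366 in wt (27.6%) and 180 of 761 in wt+TNFα (23.7%).

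Among the weakest peaks, where most noncoding-only peaks with H3K27me3 lay, the mark was found less often at them than at protein-coding promoters. In the weakest 25% of wt, 9.18% (5.96 to 13.9) of 207 noncoding-only peaks and 28.5% (26.5 to 30.6) of 1864 peaks at protein-coding promoters were overlapped. In wt+TNFα it was 10.2% (6.86 to 15.0) of 215 and 32.1% (30.0 to 34.3) of 1815. Among peaks of that group with a CpG ratio of at least 0.6, the shares were 14.7% (9.12 to 22.9) and 44.0% (41.2 to 46.9) in wt, and 18.4% (12.1 to 27.02) and 49.5% (46.5 to 52.4) in wt+TNFα. Below that ratio they were 3.81% and 4.63% in wt, and 2.68% and 5.95% in wt+TNFα. With H3K27me3 peaks of −log10 q of at least 2, the weakest 25% gave 6.76% against 21.9% in wt and 10.2% against 28.5% in wt+TNFα. Peaks at no promoter also had low shares in the weakest 25%, 8.13% in wt and 7.54% in wt+TNFα, and 22.0% and 19.9% at a CpG ratio of at least 0.6, so the low share was not particular to noncoding promoters. Strength was not fully matched within the group, since 125 of 207 noncoding-only but 787 of 1864 coding-promoter peaks of wt lay in its weaker part. In that part the shares were 10.4% (6.18 to 16.98) and 37.99% (34.7 to 41.4). In the stronger groups few noncoding-only peaks were marked, and in the next to strongest 25% the order was reversed, with 3.03% against 1.45% in wt and 5.00% against 1.41% in wt+TNFα, from 1 and 2 noncoding-only peaks.

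The noncoding-only peaks under H3K27me3 in both conditions included Mir155hg, the host gene of miR-155, and Crnde, a long noncoding RNA gene. Both were covered over their full width in wt and in wt+TNFα. The Mir155hg peak (chr16:84702935-84703572 in wt) measured 638 bp in wt and 671 bp in wt+TNFα. The Crnde peak measured 337 and 476 bp. At the locus of Mir212 and Mir132, H3K27me3 covered 42.3% of the wt H3K4me3 peak in wt and 60.7% of it in wt+TNFα. Among the wt peaks, Rncr4, a lincRNA gene, had the most enriched one under wt H3K27me3 (34.9), and the mark reached only its edge, 287 of 2081 bp. The pseudogenes H2-Bl and Gm8835, on chromosome 17, were covered over their full width in both conditions. Among the wt+TNFα peaks, Mir17hg, the host of the miR-17 cluster, had the most enriched one under wt+TNFα H3K27me3 (38.3). H3K27me3 touched that peak at its edge, 5.13% of it, in wt+TNFα alone.

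H3K27me3 changed sides at few peaks. Of the wt noncoding-only peaks, 3 were under wt H3K27me3 and not under that of wt+TNFα, or 0.870%, against 1.35% of all autosomal wt peaks. The opposite held for 6, or 1.74%, against 1.69% of all. Of the wt+TNFα peaks, 2 were under wt+TNFα H3K27me3 and not under that of wt, or 0.549%, against 1.45% of all, and the opposite held for 6, or 1.65%, against 1.65% of all. From such small counts the shares were not told apart from those of all peaks. The deposited autosomal H3K27me3 lists reached down to different strengths, to a −log10 q of 0.302 in wt and 0.747 in wt+TNFα. Of the 6 wt+TNFα peaks under wt H3K27me3 alone, 1 remained when that H3K27me3 peak had to reach a −log10 q of 2, a limit applied here after seeing the data. By the same limit, 5 of the 6 wt peaks under wt+TNFα H3K27me3 alone remained, and 1 of the 3 under wt H3K27me3 alone.

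The 3 wt peaks under wt H3K27me3 alone were at AL805899.1, Gm26771 and Gm16464. All 3 were shared, and their H3K4me3 was wider in wt+TNFα, as in 69.6% of noncoding-only pairs and 74.4% of all pairs. AL805899.1 is a lincRNA gene at chr4:88909855-88938521 on the minus strand whose body holds Mir31 near its far end, at chr4:88910557-88910662. Mir31 had no H3K4me3 peak within 1000 bp of its own start. The H3K4me3 peak at the start of AL805899.1 was 1024 bp wide in wt (chr4:88937685-88938708) with a fold enrichment of 18.9. In wt+TNFα it was 2030 bp wide (chr4:88936891-88938920) with a fold enrichment of 39.7. All of it lay under 32984 bp of wt H3K27me3 (fold enrichment 2.57, −log10 q 2.26), and no wt+TNFα H3K27me3 peak touched it. The Gm26771 peak measured 675 bp in wt and 946 bp in wt+TNFα, and that of the pseudogene Gm16464 measured 589 and 722 bp. The wt H3K27me3 peaks at these genes were weak, with a −log10 q of 0.466 and 0.804.

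A few peaks with H3K4me3 in one condition alone had H3K27me3 in the other condition alone. Of the 32 noncoding-only peaks of wt alone, 3 were under H3K27me3 in wt+TNFα and not in wt, 0 the reverse, 4 in both and 25 in neither. Of the 57 of wt+TNFα alone, 2 were under H3K27me3 in wt and not in wt+TNFα, 0 the reverse, 9 in both and 46 in neither. Among all unshared autosomal peaks, H3K27me3 of the other condition alone was found at 7.65% of 366 in wt and 5.39% of 761 in wt+TNFα, and that of the same condition alone at 0 and 11. With H3K27me3 peaks of −log10 q of at least 2, the 3 of wt remained and the 2 of wt+TNFα fell to 0. Among all unshared peaks, that limit left 4.92% in wt and 3.02% in wt+TNFα. Gm49330 and Gm10451, with H3K4me3 in wt+TNFα alone and H3K27me3 in both conditions, had more of their width under the mark in wt+TNFα, and 9530026P05Rik and Gm32618, of the same kind, had more in wt. The 3 in wt alone were Gm3054, 9130410C08Rik and Mir375, and the 2 in wt+TNFα alone were Lncpint and Gm13377.

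At Gm3054, the wt+TNFα H3K27me3 peak of 2238 bp lay wholly within the 3714 bp that carried H3K4me3 in wt (chr5:137162628-137166341), at a fold enrichment of 2.17 and a −log10 q of 2.29. At 9130410C08Rik, an antisense gene, H3K27me3 of wt+TNFα covered 87.3% of the 2562-bp wt peak. The Mir375 peak of wt was 490 bp wide with a fold enrichment of 5.11, and a wt+TNFα H3K27me3 peak of 76951 bp covered 70.6% of it. At the Lncpint start marked in wt+TNFα, 10333 bp of wt H3K27me3 (fold enrichment 2.17, −log10 q 1.01) covered 1006 of the 1059 bp with H3K4me3. At Gm13377 the wt H3K27me3 peak was 514 bp wide with a −log10 q of 0.666.

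**Figure D5:**
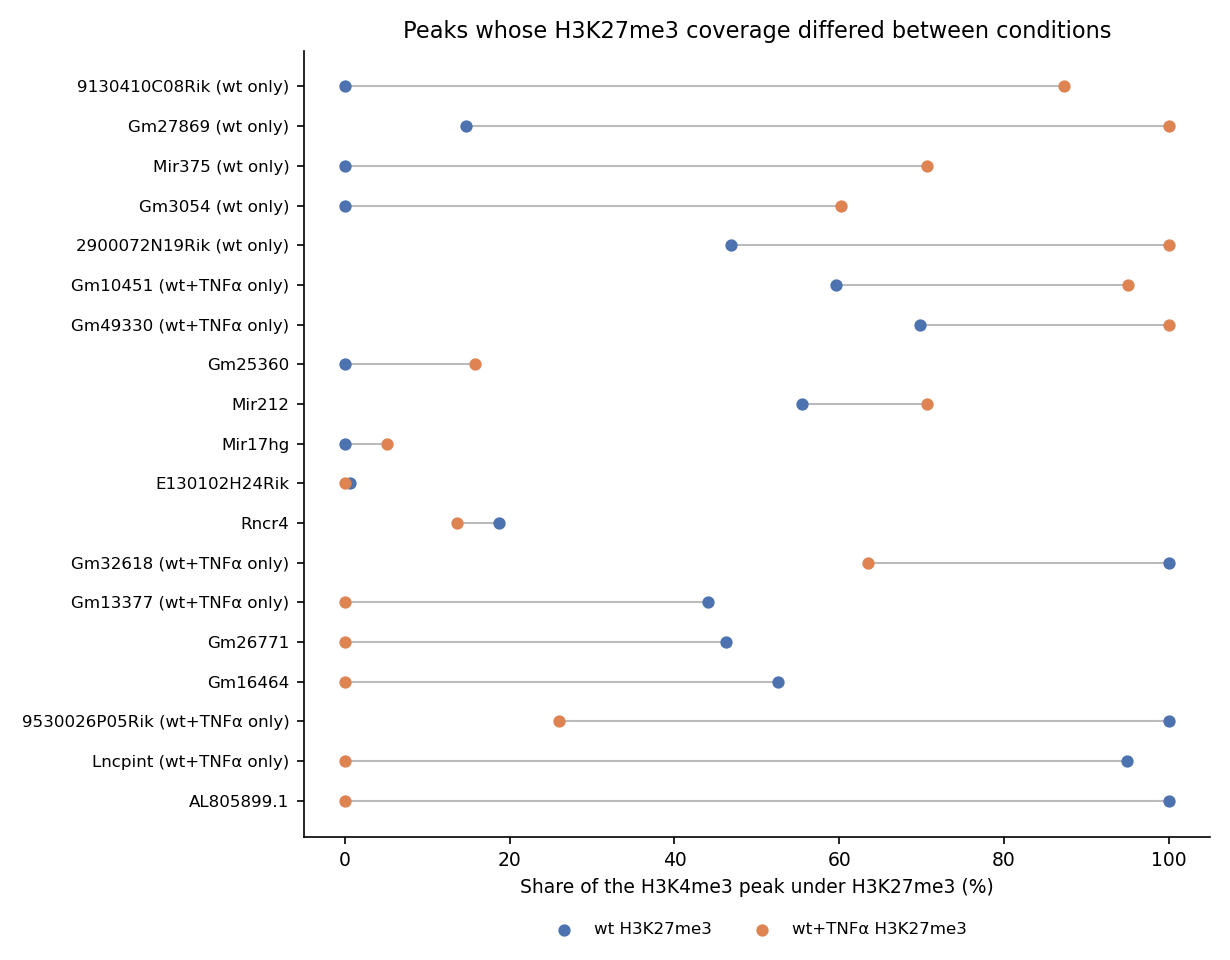
Share in percent of each noncoding-only H3K4me3 peak covered by H3K27me3 of wt and of wt+TNFα, for the 19 of 38 marked peaks where the shares differ. Peaks of wt+TNFα are drawn, and peaks of wt where wt+TNFα had none; labels name the gene nearest the summit, and 9 peaks had more in wt and 10 more in wt+TNFα.

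By group of genes, the hosts of small nucleolar RNAs, which are transcribed in most growing cells, are given first. Of 16 such autosomal noncoding genes, 8 had a noncoding-only peak, and the same 8 had it in both conditions, as did 404 of the 446 noncoding genes with a peak in wt. Of all 30344 autosomal noncoding symbols, 440 (wt) and 456 (wt+TNFα) had one. These were Snhg5, Snhg6, Snhg8, Snhg12, Snhg15, Snhg17, Snhg20 and Epb41l4aos. Their peaks were 1124 to 2338 bp wide in wt and 1400 to 2420 bp in wt+TNFα. Of the others, 7 shared their peak with a protein-coding promoter and 1 had none.

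Of 17 genes of ubiquitous nuclear and structural RNAs, 10 had a noncoding-only peak, the same 10 in both conditions. They included Malat1, Neat1, Terc, the telomerase RNA, with 856 bp in wt and 966 bp in wt+TNFα, and Rn7s2, an RNA of the signal recognition particle, with 890 and 584 bp. Dleu2, the host of Mir15a and Mir16-1, had 2 such peaks in each condition. Pvt1 had 1 peak of 747 bp in wt and 2 peaks, of 1096 and 543 bp, in wt+TNFα.

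Of 59 microRNA genes and hosts, 14 had a noncoding-only peak in wt and 13 in wt+TNFα, and Mir375 made the difference. The peak over Mir192 and Mir194-2 (chr19:6262943-6266155 in wt) was 3213 bp wide in wt and 3490 bp in wt+TNFα, and its fold enrichment was 16.1 and 32.4. The peak over Mir215 and Mir194-1 (chr1:185312112-185313952 in wt) was 1841 and 1730 bp wide, with 16.3 and 12.5. The former was wider in wt+TNFα and the latter in wt. Mir203, a microRNA of differentiating epithelium, had 1247 and 1641 bp, Mir210, a microRNA of hypoxia, had 1972 and 2483 bp, and Mirlet7i had 2140 and 2437 bp. Some microRNAs lay inside a long noncoding gene on its strand, and counted by these, 20 peaks in wt started genes that hold 33 microRNA genes, and 21 in wt+TNFα started genes that hold 34. In the same way, 17 peaks in each condition started genes that hold 28 genes of the types snoRNA and scaRNA. Mir1839, which is annotated both as miRNA and as scaRNA, was counted on both sides.

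Of 11 imprinted noncoding genes, which are transcribed from 1 parental allele, 4 had a noncoding-only peak in wt and 2 in wt+TNFα, beside 1.45% of all noncoding symbols in wt. Airn (1300 and 1355 bp) and Peg13 (1171 and 1735 bp) had it in both. Kcnq1ot1 had a 1782-bp peak in wt (chr7:143294749-143296530, fold enrichment 8.17), and no H3K4me3 peak lay within 177038 bp of it in wt+TNFα. Neither condition had H3K27me3 over it. Nespas, at the Gnas locus, had a 361-bp peak (fold enrichment 4.41) in wt alone. Its H3K27me3 coverage was 14.7% in wt and 100% in wt+TNFα.

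The remaining lists are set beside the same 1.45% of all noncoding symbols. Among 17 noncoding genes of the Hox clusters, 2 had one, Hoxaas3 and Mir196a-1, in both conditions. In each condition, 5 of the 17 shared their peak with a protein-coding promoter. Gm53, which had the widest noncoding-only peak and lies in the Hoxb cluster, was not on this list. Among 29 noncoding genes beside developmental regulators, 1 had one, which was Peg13, already counted among the imprinted genes. Among 18 noncoding genes of inflammation and the p53 response, the same 5 had one in both conditions, which were Lncpint, Mir155hg, Neat1, Malat1 and Pvt1, all of them also members of the lists above. H3K4me3 was wider in wt+TNFα at all 5, by 33 bp at Mir155hg and up to 853 bp at Neat1, beside 74.4% of all pairs, while Mir146, an NF-κB-induced microRNA gene, had no peak at its start in either condition.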

How the data were processed

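H3K4me3 and H3K27me3 ChIP-seq peak lists of wt and wt+TNFα mouse colonic organoids were used, 1 library per condition and mark, grouped by the sample labels. The reads and the inputs were not analysed here. According to the methods and labels, fastp was used by the authors for trimming, BWA (version 2.2) for alignment to the GRCm38/mm10 genome and SAMtools (1.11) for duplicates. They left out blacklisted regions and called narrow H3K4me3 and broad H3K27me3 peaks with MACS2 (2.1.0 in the methods and labels, another version in the reporting summary) against the input of the same condition. In the deposited lists, the authors' fold enrichment is a ratio of ChIP signal to local background, p- and q-values are on a −log10 scale, and a score and, for narrow peaks, the summit offset are also given by the authors. The score was not used. A spike-in, which the methods do not describe, stands in the names of the H3K4me3 lists and of the wt H3K27me3 list. The lists hold no counts, so the depth behind a peak is unknown here, and a fold enrichment set across libraries is not a measured change.

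Genes came from GENCODE M21 for GRCm38, with 55450 genes and 141767 transcripts, and sequences and coding mRNA starts from RefSeq for GRCm38. Chromosomes X and Y were left out of the rule. Coordinates are 1-based. Groups of 25% by −log10 q were cut over all autosomal peaks of a list. Peaks were paired one to one where each overlapped the other alone and both were noncoding-only. Shares have Wilson 95% intervals and medians exact binomial ones, for counting error only. Calculations used Python 3.11.15, pandas 2.3.3, numpy 2.4.6 and scipy 1.17.1, with plots in matplotlib 3.10.9, and the overlap steps were tested on simulated peak lists.

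The rule for the peaks and the gene lists was chosen with earlier results of these data known. Genes were named by list and by rank: per condition the 5 noncoding-only peaks of highest fold enrichment, the 5 widest, the 5 of highest fold enrichment without a peak in the other condition and under H3K27me3, and the 5 paired peaks with the largest change of width each way. A peak at several genes was named by the start nearest its summit. Peaks whose H3K27me3 differed between the conditions, the microRNAs shown by sequence, Mir31 and the marker genes were chosen after values were seen. A narrower form of the κB motif was searched first, and the consensus was taken after its counts were seen. The alternatives tried were other promoter sizes, 1 start per gene, filters on −log10 q, equal numbers of peaks, an overlap of 50%, long noncoding RNA genes alone and, added after seeing the data, the exclusion of RefSeq coding starts.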

Additional observations from a re-analysis of the deposited data

Results flagged for a closer look

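Chromosome X was outside the comparisons, which used autosomes, and showed a difference there. Of 15 H3K4me3 peaks of wt+TNFα at noncoding promoters only on this chromosome, 8 overlapped wt+TNFα H3K27me3 and 0 overlapped wt H3K27me3. Of the 13 such peaks of wt, 7 overlapped wt+TNFα H3K27me3 and 0 overlapped wt H3K27me3. Of all H3K4me3 peaks on chromosome X, 77.5% in wt+TNFα and 76.9% in wt overlapped wt+TNFα H3K27me3, so noncoding promoters were below that share, from small counts.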

How the results depend on the processing

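Under 10 alternative settings, 1 of them chosen after seeing the data, the numbers, widths, sharing and H3K27me3 overlap of noncoding-only peaks were recomputed 70 times, and 59 values stayed within 1.5 times the reported count or within the reported 95% interval. With the stronger H3K4me3 peaks alone, those over the list's median −log10 q, 48 noncoding-only peaks remained in wt and 57 in wt+TNFα. The list they were compared with was limited in the same way, so that partners below its median no longer counted as shared. Their median widths were 1756 and 1981 bp, the sharing of wt+TNFα peaks was 75.4%, and the H3K27me3 overlap was 2.08% and 3.51%. With 1 start per gene there were more noncoding-only peaks, 481 in wt and 505 in wt+TNFα, and the median widths were 1196 and 1278 bp. The sharing of wt+TNFα peaks was 87.9% with equal numbers of peaks and 80.2% when at least 50% of the peak had to be covered. Without peaks at RefSeq coding starts, 306 peaks in wt and 318 in wt+TNFα were left. No paired analysis was possible because each condition and mark had 1 library. The sharing and H3K27me3 values of weak peaks rest on calls near the threshold of each list, and no spread between cultures is known.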
